A study of Mus musculus with 8 samples.

Results

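The question addressed is which parts of the kidney's transcriptional response to ischemia-reperfusion depend on Ehmt2, which encodes the H3K9 methyltransferase G9a. All 8 libraries of the gene table enter, and the quantity followed is the interaction, the change with ischemia-reperfusion in the knockout minus the change in wild type. It was computed for each of 15607 genes that passed a filter on low values, of 54251 in the file. A gene is said to be called where limma's p-value, adjusted by Benjamini-Hochberg over all genes tested, was under 0.05.

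The groups are 4 with 2 libraries each, from kidneys of adult male C57BL/6 mice. WT is wild type, and KO is labelled as a G9a knockout that is kidney-specific, with the Cre driver not given in the sources used here. Kidneys of each genotype after ischemia-reperfusion (IR) form the groups WT_IR and KO_IR, with IR made by a 45 min clamp on the vessels of the left kidney and tissue taken on day 3. A library holds the pooled RNA of 3 mice, selected for polyadenylated transcripts, so p-values measure the spread between 2 pools of a group. In the labels the genotype stands under the treatment tag and IR under the genotype tag, and titles and tags give the same groups. Whether WT and KO kidneys come from mice without surgery, or are the unclamped kidneys of operated mice, is not given in the labels.

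G9a places methyl groups on H3K9, a mark of silenced chromatin, and is known to hold down interferon-stimulated genes and to act at many developmental promoters. In the kidney, loss of blood flow mainly hurts the proximal tubule, which lives on mitochondrial fatty acid oxidation and carries most solute transporters. Injured tubule cells lose transporters and metabolic enzymes, express injury genes such as Havcr1 and Lcn2, draw in leukocytes and re-enter the cell cycle, while fibroblasts lay down matrix.

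The tissue carried kidney markers, with 21 proximal tubule genes summing to 7786 and 8043 FPKM in WT. Depth was even, with 14965670 to 17596690 fragments recovered per library. A count of 3 fragments, taken as the floor, equals 0.148 to 0.206 FPKM for a transcript length of 1 kb, and it allows for counting error alone. The whole Ehmt2 gene model (ENSMUSG00000013787, GRCm38 chromosome 17, 34898469 to 34914052) had 33.4 and 30.3 FPKM in WT, 34.5 and 35.8 in WT_IR, 28.1 and 26.4 in KO, and 27.4 and 26.3 in KO_IR. All KO and KO_IR libraries lay below all WT and WT_IR libraries, and the transcript was present in each. KO minus wild type was -0.38 ± 0.08 (adjusted p = 0.0140) after IR, and without IR the value, -0.22 ± 0.08 (adjusted p = 0.370), missed the threshold. The Ehmt2 interaction was -0.16 ± 0.12 (adjusted p = 0.407) on the deposited scale, -0.60 on a TPM scale (adjusted p = 0.0133), -0.44 on recovered totals (adjusted p = 0.0343) and -0.45 with voom (adjusted p = 0.0318). The genotype is taken from the labels. On an axis from the WT mean (0) to the WT_IR mean (1), taken as the median over genes that rose at least 2-fold in WT_IR, KO replicates 1 and 2 reached 0.0257 and 0.155. On the same axis KO_IR replicates 1 and 2 reached 0.415 and 0.467. Over genes that fell at least 2-fold the values were 0.0334 and 0.0518 for KO and 0.152 and 0.275 for KO_IR. KO replicate 2 therefore stood apart from KO replicate 1 in genes that rise with injury, and the count of interaction calls is given without it.

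Most of what the interaction called was a smaller response in KO. It was called for 2544 genes (16.3%), above 0 for 1502 (9.62%) and below 0 for 1042 (6.68%). In 2540 of the 2544 the interaction ran against the sign of the WT response, and in 4 it ran with it. Both quantities contain the same WT and WT_IR libraries, so part of this opposition comes with the arithmetic. The difference between the genotypes after IR was larger than the difference without IR in 2384 of them (93.7%). KO and WT differed without IR at 18 of the 2544, beside 34 of all genes tested (0.218%), and after IR at 2374, beside 4689 of all genes (30.0%). With 1 library left out the count was 1354 without WT replicate 1, 1293 without KO replicate 2, 1368 and 1289 without WT_IR replicates 1 and 2, and 1543 without KO_IR replicate 1. Without both KO replicate 2 and KO_IR replicate 1 it was 497, and 990 genes (38.9%) kept their call whichever single library was left out.

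The split by direction depends on the scale. A TPM scale lowers the median interaction of all genes from 0.0031 to -0.39 and gives 745 genes above 0 and 3783 below 0. A scale by recovered fragment totals shifts the median to -0.21 and gives 950 above and 2357 below. Fragments fitted with voom shift it to -0.27 and give 1065 above and 2657 below. The median-of-ratios factor is the same in every library, 1.01072, so the deposited values already stand on a median-of-ratios scale. The ratio of the implied denominator to the gene total was largest in the WT_IR libraries, 1.18 and 1.19, against 0.921 to 1.03 in the others. The choice of scale and the WT_IR group therefore cannot be told apart.

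**Figure D1:**
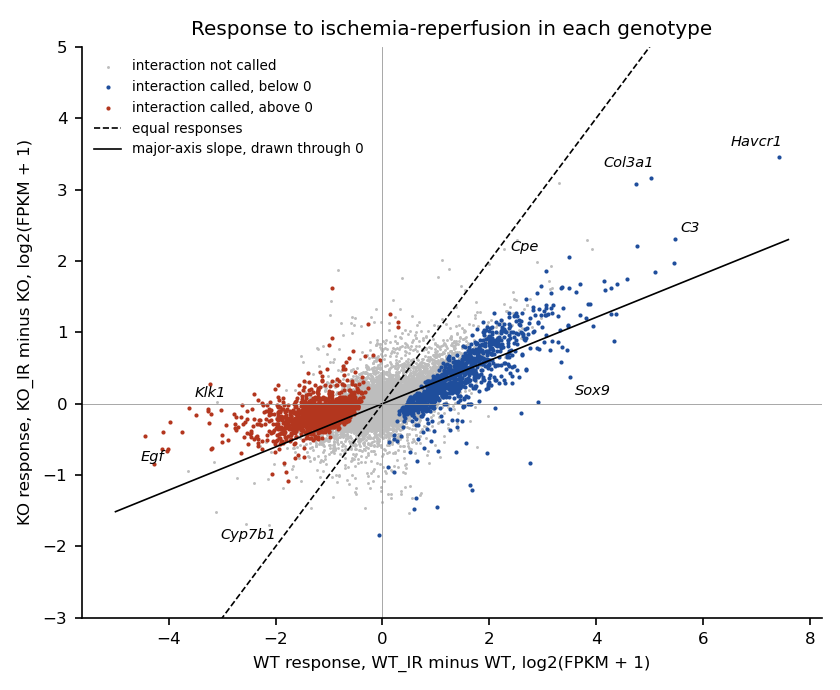
Change with ischemia-reperfusion in wild type (x axis) and knockout (y axis), as differences of log2(FPKM + 1) between group means of 2 libraries, for 15607 genes. Blue and red points are the 1042 genes with an interaction below 0 and the 1502 above 0, nearly all on the side of the dashed line of equal responses where the KO change is the smaller one; the solid line has the major-axis slope of 0.303.

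How much of each response remained was described by the ratio of the KO change to the WT change, in 2203 genes called and changed at least 2-fold in WT (14.1%). These responders comprised 1141 genes that rose (7.31%) and 1062 that fell (6.8%), and the interaction was called for 1570 of them (71.3%), against the WT direction in all 1570. Among the genes that rose, the median ratio of log2 changes was 0.359, with quartiles of 0.251 and 0.449. Among those that fell it was 0.152, with quartiles of 0.0753 and 0.229. Taken one KO and one KO_IR library at a time, the medians spanned 0.272 to 0.431 for rises and 0.0835 to 0.214 for falls, so the ranges of the 2 directions did not overlap on this scale. Without KO_IR replicate 2 the median of the falls was 0.0862.

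The responders were chosen by the WT response, which is the divisor of the ratio. In genes chosen by the IR effect averaged over both genotypes, the medians were 0.407 for 601 rises and 0.194 for 228 falls.

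The gap between rises and falls was smaller on a linear scale. Computed as a ratio of FPKM differences, the medians were 0.257 for rises and 0.209 for falls, and the single-library ranges of 0.195 to 0.304 and 0.123 to 0.292 overlapped. Over classes of the size of the WT response, the trend differed between the scales. From the smallest class to the largest, the median log2 ratio went from 0.153 to 0.105 for falls and from 0.334 to 0.403 for rises. The ratio of FPKM differences went the other way, from 0.198 to 0.282 for falls and from 0.257 to 0.180 for rises. For rises the middle classes had 0.261 and 0.264, so only the largest class, of 58 genes, lay lower. Across 5820 genes called by the IR effect averaged over genotypes, the KO response followed the WT response with a major-axis slope of 0.303 and a Pearson's r of 0.833, and 94.55% had the same sign. Choosing genes by the averaged effect favours a shared sign. Over all 15607 genes Pearson's r was 0.659 and 71.3% had the same sign, and of the 2203 WT responders 2055 (93.3%) did. The WT and KO responses share no library, and genes are not independent replicates.

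**Figure D2:**
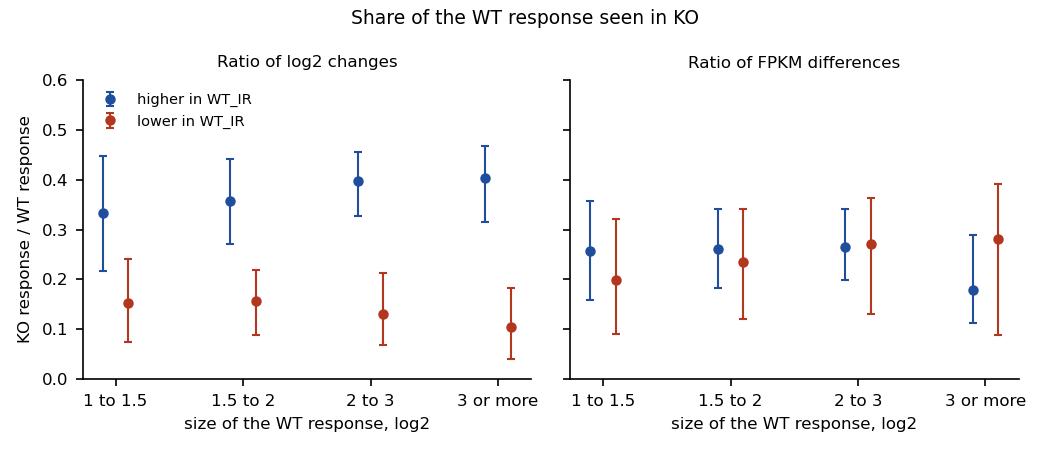
Ratio of the KO response to the WT response in genes called and changed at least 2-fold in wild type, by the size of the WT response; points are medians over genes and bars run from the lower to the upper quartile. On the left, ratios of log2 changes separate genes that rose (0.334 to 0.403) from genes that fell (0.105 to 0.156), and on the right, ratios of FPKM differences bring both within 0.180 to 0.282.

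A test of the KO response against 0.5 times the WT response made few calls with 2 libraries per group. limma called 2 genes (0.0128%), Klk1 and Pgam2, both below 0.5 times, and 0 with any library left out. At an unadjusted p under 0.05, 928 of the 2203 responders lay below that line and 9 above it, beside 1841 of all genes on either side (11.8%). The responders were chosen by the WT response, which is part of this contrast. In genes chosen by the averaged effect, 113 of 601 rises lay below the line and 8 above it, and 146 of 228 falls lay below and 1 above. By the adjusted p, 0 genes were called above it by limma and 0 by voom. Klk1, the tissue kallikrein gene of the distal nephron, had 2120 and 2037 FPKM in WT, 162 and 176 in WT_IR, 1848 and 1821 in KO, and 1840 and 1693 in KO_IR. Pgam2, a phosphoglycerate mutase gene, had 105 and 91.9 FPKM in WT, 13.7 and 13.2 in WT_IR, 66.0 and 68.0 in KO, and 62.1 and 59.0 in KO_IR. In both genes the KO and KO_IR libraries lay close together and the WT_IR libraries far below all others.

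Tubular injury genes rose in WT_IR and reached a lower level in KO_IR. Of 22 genes tested on this list, 21 rose in WT (beside 19.1% of all genes), 6 rose in KO (0.948%), and 14 had an interaction below 0 (6.68%). The median change was 2.54 in WT and 1.21 in KO, against -0.023 and -0.019 over all genes. With 1 library left out the interaction was called for 8 to 16 of them, fewest without either WT_IR library. Without KO replicate 1 only 5 genes rose in KO over all genes tested, and with KO_IR replicate 1 or either of the WT_IR libraries left out limma called 0, while 1825 to 1879 genes stayed under an unadjusted p of 0.05. Genes that rose in KO numbered 148 with all 8 libraries, 104 without KO replicate 2, 88 without KO_IR replicate 2, and 74 and 71 without WT replicates 1 and 2. Counts of KO calls, here and for the other lists, therefore depend on which libraries enter. That holds for WT_IR libraries too, because all groups share the variance of a gene. At an unadjusted p under 0.05, 12.8% of all genes passed for the KO change, 30.7% for the interaction and 11.9% for KO against WT without IR, and list counts at that threshold are to be read against these shares. Adjusted counts of the lists below are to be read against 19.1% of all genes rising and 23.2% falling in WT. For the interaction the shares were 9.62% above 0 and 6.68% below 0.

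Havcr1 (ENSMUSG00000040405, GRCm38 chromosome 11, 46735080 to 46779578) encodes KIM-1, a receptor that injured proximal tubule cells use to take up dead cells. Its level was 0.828 and 1.23 FPKM in WT, 344 and 345 in WT_IR, 0.593 and 7.50 in KO, and 33.1 and 47.3 in KO_IR. The KO_IR values were far below the WT_IR values and above all values without IR, and KO replicate 2 was above KO replicate 1 and both WT libraries. The interaction was -3.96 ± 0.94 (adjusted p = 0.0320), with a WT change of 7.42 ± 0.67 and a KO change of 3.46 ± 0.67 (adjusted p = 0.0706). The call was lost when either WT, either WT_IR or either KO_IR library was left out, and without KO replicate 2 the interaction was -2.75 (adjusted p = 0.0170).

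Lcn2 (ENSMUSG00000026822, GRCm38 chromosome 2, 32384633 to 32388252) encodes the siderophore carrier NGAL. It had 2.82 and 1.95 FPKM in WT, 145 and 149.8 in WT_IR, 1.54 and 5.13 in KO, and 11.1 and 19.0 in KO_IR. All KO_IR values lay above KO and far below WT_IR. Its interaction was -3.49 ± 0.58 (adjusted p = 0.0103) and was called with every library left out, at -2.86 (adjusted p = 0.0202) without KO replicate 2.

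Sox9 (ENSMUSG00000000567, GRCm38 chromosome 11, 112782224 to 112787760), a transcription factor of regenerating tubule cells, had 0.254 and 0.516 FPKM in WT, 13.2 and 16.3 in WT_IR, 0.232 and 0.588 in KO, and 0.742 and 0.899 in KO_IR. The KO_IR libraries were slightly above the libraries without IR and far below both WT_IR libraries. The interaction was -3.13 ± 0.25 (adjusted p = 0.00325) and the KO change was 0.38 ± 0.18 (adjusted p = 0.438).

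Krt20, a keratin gene of injured epithelium, kept a part of its rise, with 0.160 and 0.302 FPKM in WT, 28.1 and 28.3 in WT_IR, 0.320 and 0.453 in KO, and 4.75 and 2.79 in KO_IR. The KO change of 1.75 ± 0.19 (adjusted p = 0.0174) passed, as did the interaction of -2.82 ± 0.27 (adjusted p = 0.00367). WT replicate 1 of Krt20 was under the floor, so the size of this interaction depends on the pseudocount. It was -3.49 at a pseudocount of 0.1 and -1.97 at one of 5. Cd44, the hyaluronan receptor gene, changed by 3.82 ± 0.16 (adjusted p = 4.59e-05) in WT and 1.20 ± 0.16 (adjusted p = 0.0292) in KO, with an interaction of -2.62 ± 0.22 (adjusted p = 0.00325). Vcam1, an adhesion molecule for leukocytes, had 0.556 and 0.817 FPKM in WT, 52.6 and 61.0 in WT_IR, 0.564 and 1.54 in KO, and 5.94 and 6.46 in KO_IR. It rose in both genotypes, by 5.10 ± 0.22 in WT and 1.85 ± 0.22 (adjusted p = 0.0201) in KO, with an interaction of -3.25 ± 0.31 (adjusted p = 0.00367).

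Other genes with large interactions below 0 were called with every library left out too. Aoc1, which encodes the histamine-degrading diamine oxidase, had 3.05 and 1.73 FPKM in WT, 74.6 and 59.3 in WT_IR, 6.46 and 9.88 in KO, and 10.8 and 22.5 in KO_IR, and its interaction was -3.46 ± 0.50 (adjusted p = 0.00734). Its KO libraries lay above the WT ones, KO_IR replicate 1 just above KO and replicate 2 well above it, and the KO change of 0.88 ± 0.36 (adjusted p = 0.369) did not pass. Hspb1, a small heat shock protein gene, had 16.9 and 15.1 FPKM in WT, 256 and 261 in WT_IR, 14.6 and 22.1 in KO, and 44.1 and 35.4 in KO_IR and an interaction of -2.85 ± 0.27 (adjusted p = 0.00367). Prrg4, a gene of a vitamin K-dependent membrane protein, had 0.858 and 1.96 FPKM in WT, 17.3 and 16.1 in WT_IR, 1.80 and 1.52 in KO, and 1.64 and 1.76 in KO_IR. Its KO_IR libraries lay within the range of the libraries without IR, and the interaction was -2.89 ± 0.29 (adjusted p = 0.00368).

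**Figure D3:**
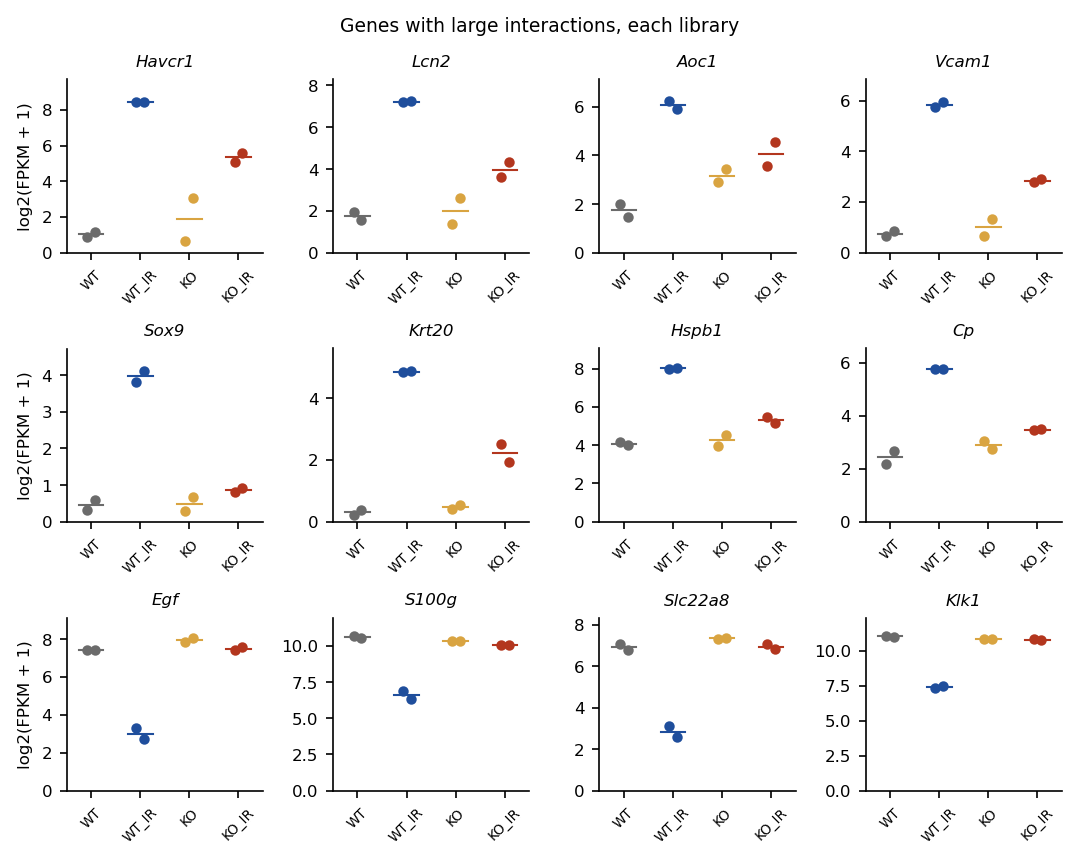
Level of 12 genes with large interactions in each library, as log2(FPKM + 1); each point is a library, the horizontal lines are group means of 2 libraries, and every axis starts at 0. In the upper 8 genes the WT_IR libraries lie above all others, and in Egf, S100g, Slc22a8 and Klk1 they lie below all others, with KO_IR close to KO.

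Promoter sequences were looked at for motifs of factors known in injury and tubule identity, in the window from 250 bases before to 50 after the RefSeq gene start (GRCm38.p6). A promoter was found for 9 of the 12 genes named for interactions below 0, and 4 of these held a motif. The 3 with the largest interactions below 0 among them are shown, and the fourth, Cp, held an AP-1 and an HNF1 motif. For the 12 genes named above 0, 6 promoters were found and 0 held a motif. Capitals mark motif matches on either strand, counted from 1 at the first base shown.
Havcr1, chr11:46750918-46751217, plus strand, AP-1 motif from base 261: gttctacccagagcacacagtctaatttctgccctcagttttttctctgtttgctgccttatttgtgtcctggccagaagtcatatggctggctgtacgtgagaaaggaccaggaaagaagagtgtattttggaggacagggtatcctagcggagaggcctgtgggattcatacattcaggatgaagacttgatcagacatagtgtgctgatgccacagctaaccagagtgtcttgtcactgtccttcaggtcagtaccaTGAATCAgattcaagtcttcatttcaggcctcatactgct
Aoc1, chr6:48904736-48905035, plus strand, AP-1 motif from base 120: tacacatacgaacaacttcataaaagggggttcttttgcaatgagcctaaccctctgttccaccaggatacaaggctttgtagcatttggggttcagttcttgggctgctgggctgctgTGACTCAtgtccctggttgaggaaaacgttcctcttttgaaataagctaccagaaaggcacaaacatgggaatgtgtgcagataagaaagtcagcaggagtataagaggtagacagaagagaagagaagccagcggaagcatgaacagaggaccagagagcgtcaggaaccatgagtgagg
Cxcl10, chr5:92348840-92349139, minus strand, interferon response motif from base 38, NF-kB motif from base 93 and AP-1 motif from base 177: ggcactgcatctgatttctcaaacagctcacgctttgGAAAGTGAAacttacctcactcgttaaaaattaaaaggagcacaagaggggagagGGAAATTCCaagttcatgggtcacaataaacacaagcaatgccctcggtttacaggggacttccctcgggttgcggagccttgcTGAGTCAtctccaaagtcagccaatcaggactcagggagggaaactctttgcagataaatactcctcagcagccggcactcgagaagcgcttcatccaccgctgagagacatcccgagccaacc
The RefSeq starts of Havcr1 and Aoc1 lie inside the annotated gene spans, that of Aoc1 being 48872896 to 48909188. The motifs in these 3 windows do not overlap each other.

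Over whole groups each motif was in a minority of promoters. The AP-1 motif TGANTCA was in 9.78% of the promoters of genes with an interaction below 0 and a WT rise, in 5.64% of those with one above 0 and a WT fall, and in 6.48% of all tested genes. Shares for the NF-kB motif GGANTTTCC were 3.26%, 1.94% and 1.64%, and for the interferon response motif GAAANNGAA they were 10.4%, 7.49% and 8.75%. The HNF1 motif GTTAATNAT was in 0.522%, 1.94% and 0.747%, and the HNF4A motif CAAAGTCCA in 0.391%, 0.924% and 0.546%. The E2F motif TTTCCCGC was in 1.96%, 1.85% and 2.15%. A promoter was found for 767 of 1035, 1082 of 1465 and 10439 of 15270 symbols, both strands were searched, matches that overlap another motif were counted for each, and no test was made.

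Chemokines, cytokines and NF-kB targets rose in WT_IR, and most stayed lower in KO_IR. Of 22 tested, 18 rose in WT, 2 in KO, and 16 had an interaction below 0, with medians of 1.98 in WT and 0.62 in KO. Left-out libraries gave 10 to 15 interaction calls, fewest without WT_IR replicate 2.

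Ccl2 (ENSMUSG00000035385, GRCm38 chromosome 11, 82035571 to 82037453), which attracts monocytes, had 0.108 and 0 FPKM in WT, 17.4 and 24.5 in WT_IR, 0.422 and 0.986 in KO, and 3.47 and 2.59 in KO_IR. The KO_IR libraries were above KO and far below WT_IR, and the interaction was -3.11 ± 0.31 (adjusted p = 0.00368). Both WT values were under the floor, so the size of its WT change depends on the pseudocount. Cxcl10 (ENSMUSG00000034855, GRCm38 chromosome 5, 92346638 to 92348889), an interferon-induced chemokine for T cells, had 0.849 and 1.41 FPKM in WT, 28.9 and 55.8 in WT_IR, 2.74 and 3.74 in KO, and 9.72 and 8.51 in KO_IR. Its KO libraries were above both WT libraries, and the interaction was -3.02 ± 0.42 (adjusted p = 0.00659). Il34, a ligand of the macrophage receptor CSF1R, had 7.75 and 8.75 FPKM in WT, 62.4 and 72.3 in WT_IR, 6.05 and 6.91 in KO, and 12.6 and 11.2 in KO_IR and rose by 0.78 ± 0.12 (adjusted p = 0.0346) in KO and 2.88 ± 0.12 in WT. Relb, a subunit of NF-kB, had an interaction of -1.71 ± 0.15 (adjusted p = 0.00325) and Nfkb2, its partner, one of -1.48 ± 0.14 (adjusted p = 0.00367).

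Markers of leukocytes moved with these genes, and in bulk RNA fewer cells of a type and less RNA per cell cannot be told apart. Of 16 macrophage markers 16 rose in WT, 10 rose in KO, and 14 had an interaction below 0. That number was 8 to 14 with a library left out, lowest without KO replicate 2, and 7 without both KO replicate 2 and KO_IR replicate 1. Their summed level was 69.4 and 76.4 FPKM in WT, 727 and 728 in WT_IR, 92.4 and 137 in KO, and 304 and 372 in KO_IR. Tyrobp, an adaptor of myeloid receptors, had 4.25 and 5.33 FPKM in WT, 45.0 and 48.6 in WT_IR, 9.77 and 9.91 in KO, and 23.4 and 26.2 in KO_IR. It was already higher in KO than in WT without IR, by 0.91 ± 0.11 (adjusted p = 0.0478), and its interaction was -1.80 ± 0.16 (adjusted p = 0.00328). C1qb, a complement subunit made by macrophages, had 11.5 and 12.7 FPKM in WT, 132 and 136 in WT_IR, 14.2 and 19.7 in KO, and 49.7 and 58.5 in KO_IR and an interaction of -1.73 ± 0.22 (adjusted p = 0.00522).

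Lymphocyte and neutrophil markers were low. Of 7 T and NK cell markers 7 rose in WT, 0 were called in KO by limma or voom (2 at an unadjusted p under 0.05), and 1 had an interaction below 0, Cd2 at -0.96 ± 0.19 (adjusted p = 0.0187). Their summed level was 3.42 and 2.83 FPKM in WT, 18.1 and 25.7 in WT_IR, 3.72 and 5.29 in KO, and 7.06 and 11.2 in KO_IR. Of 4 neutrophil markers 2 rose in WT and 2 had an interaction below 0, with Mpo and Elane at 0 in every library. Of 2 B cell markers both rose in WT and 1, Cd79b, had an interaction below 0 at -1.37 ± 0.37 (adjusted p = 0.0468). The calls of Cd2, Cd79b and both neutrophil markers were each lost without KO replicate 2 and without WT_IR replicate 2, among others. The part of leukocyte number in the smaller chemokine response was not tested.

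Interferon-stimulated genes differed from the injury genes in where the genotypes parted. Of 26 tested, 25 rose in WT, 6 rose in KO, and 16 had an interaction below 0, 8 to 13 with a library left out and fewest without WT_IR replicate 2. Without IR the KO mean lay above the WT mean for all 26, 5 of them called, with a median difference of 0.72 beside -0.0043 over all genes. After IR the median difference of KO_IR from WT_IR was only -0.16 on the deposited scale. Of the 26, 6 were called lower (beside 13.5% of all genes). A TPM scale multiplies the WT_IR libraries by 3.41 and 3.35 and the KO_IR libraries by 2.50 and 2.76, which lowers KO_IR against WT_IR. The interaction was called below 0 for 24 on a TPM scale and 22 on recovered totals, beside 3783 and 2357 of all 15607 genes. In either direction voom called 22, beside 3722 of all genes. For tubular injury genes the median difference was 0.081 without IR and -1.40 after IR, with 17 of 22 called lower after IR. The 2 lists were not tested against each other.

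Oasl2, an antiviral protein gene of the OAS family, had 1.50 and 1.74 FPKM in WT, 9.91 and 9.55 in WT_IR, 4.59 and 4.63 in KO, and 9.10 and 7.28 in KO_IR. KO lay between WT and WT_IR, and KO_IR came up to just below WT_IR. Its difference without IR was 1.10 ± 0.11 (adjusted p = 0.0444), its difference after IR -0.23 ± 0.11 (adjusted p = 0.175), and its interaction -1.33 ± 0.16 (adjusted p = 0.00495). Irf7, a transcription factor that amplifies interferon, had 8.24 and 7.80 FPKM in WT, 28.2 and 30.3 in WT_IR, 19.8 and 16.6 in KO, and 36.3 and 31.0 in KO_IR. Here KO_IR reached above WT_IR, with a difference of 0.19 ± 0.12 (adjusted p = 0.255), and on a TPM scale that order turns. The interaction of -0.89 ± 0.16 (adjusted p = 0.0137) was lost without WT_IR replicate 2. Zbp1, a sensor of Z-form nucleic acid, had 0.437 and 0.403 FPKM in WT, 4.02 and 4.34 in WT_IR, 1.67 and 1.64 in KO, and 3.85 and 3.61 in KO_IR. The KO and WT libraries did not overlap without IR, the difference after IR was -0.13 ± 0.10 (adjusted p = 0.355), and the interaction was -1.03 ± 0.14 (adjusted p = 0.00580). Ddx58, the gene of the RNA sensor RIG-I, and the guanylate-binding protein gene Gbp3 followed with interactions of -1.05 ± 0.11 and -1.76 ± 0.18, and for these KO_IR stayed below WT_IR, by -0.58 ± 0.08 (adjusted p = 0.00212) and -0.93 ± 0.13 (adjusted p = 0.00254).

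Complement and acute phase genes held both kinds of response. Of 21 tested, 14 rose and 5 fell in WT, 3 rose and 4 fell in KO, and the interaction was below 0 for 11 and above 0 for 4. Calls with a library left out numbered 8 to 15, fewest without either WT_IR library. C3 (ENSMUSG00000024164, GRCm38 chromosome 17, 57203970 to 57228136), the central complement protein, had 9.42 and 17.3 FPKM in WT, 650.1 and 579 in WT_IR, 10.4 and 13.9 in KO, and 62.4 and 65.2 in KO_IR. Its KO_IR values were far below WT_IR and well above KO, and its interaction was -3.16 ± 0.36 (adjusted p = 0.00427). Cp, the gene of the ferroxidase ceruloplasmin, had 3.51 and 5.38 FPKM in WT, 53.2 and 53.04 in WT_IR, 7.19 and 5.68 in KO, and 9.95 and 10.3 in KO_IR and an interaction of -2.75 ± 0.24 (adjusted p = 0.00328). Saa1, an acute phase protein gene, was at 0 in both KO libraries and 0.262 and 0.181 FPKM in KO_IR, against 4.33 and 4.81 in WT_IR. Its interaction was -2.13 ± 0.18 (adjusted p = 0.00325). The KO values and KO_IR replicate 2 of Saa1 were under the floor, so the size of this interaction depends on the pseudocount.

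Some plasma proteins best known from liver fell in both genotypes. Serpina1d, C8a, Itih2 and Alb were called lower in KO, 4 of the 12 genes called lower in KO over all genes (0.0769%). C8a, a subunit of the membrane attack complex, had 6.43 and 6.73 FPKM in WT, 1.27 and 1.19 in WT_IR, 6.60 and 7.97 in KO, and 2.81 and 2.98 in KO_IR. Itih2, a hyaluronan-binding inhibitor chain, had 1.80 and 2.15 FPKM in WT, 0.494 and 0.579 in WT_IR, 3.56 and 3.29 in KO, and 0.997 and 1.37 in KO_IR, with an interaction of -0.07 ± 0.18 (adjusted p = 0.834). Serpina1d, an alpha-1-antitrypsin gene whose reads can be shared with its close paralogs, had 114 and 159.9 FPKM in WT, 17.7 and 27.7 in WT_IR, 154 and 192 in KO, and 51.0 and 54.6 in KO_IR. The interaction of Alb, the albumin gene, was 1.01 ± 0.16 (adjusted p = 0.00970), and that of C8a was 0.68 ± 0.15 (adjusted p = 0.0257), which was lost without any one library except KO replicate 2.

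Matrix genes rose in WT_IR, and some rose in KO as well. Of 32 tested, 31 rose in WT, 14 rose in KO, and 19 had an interaction below 0, 8 to 19 with a library left out, fewest without WT replicate 1, and 4 without both KO replicate 2 and KO_IR replicate 1. Timp1, an inhibitor of matrix proteases, had 0.0695 and 0.0729 FPKM in WT, 25.8 and 30.5 in WT_IR, 0.154 and 0.843 in KO, and 5.38 and 6.21 in KO_IR. Its KO_IR libraries stood clear of KO and below WT_IR. The KO change was 2.22 ± 0.21 (adjusted p = 0.0143) and the interaction -2.54 ± 0.30 (adjusted p = 0.00466). Both WT values and KO replicate 1 of Timp1 were under the floor, so the sizes of its changes depend on the pseudocount. Col3a1, a fibrillar collagen gene, had 1.38 and 1.74 FPKM in WT, 87.0 and 78.3 in WT_IR, 1.22 and 3.22 in KO, and 24.99 and 28.1 in KO_IR and rose by 5.03 ± 0.27 in WT and 3.17 ± 0.27 (adjusted p = 0.0143) in KO. Its interaction of -1.86 ± 0.38 (adjusted p = 0.0197) was lost without WT replicate 1, either WT_IR library or KO_IR replicate 1. The median ratio of responses over the 28 responders on the list was 0.506 on the log2 scale and 0.334 for FPKM differences, beside 0.359 and 0.257 over all responders that rose.

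Fibroblast and pericyte markers moved with the matrix genes. Of 7 tested, 5 rose in WT, 1 rose in KO, and 3 had an interaction below 0. Pdgfrb, a growth factor receptor of pericytes, had 4.36 and 6.12 FPKM in WT, 30.0 and 32.1 in WT_IR, 6.87 and 6.52 in KO, and 13.2 and 14.9 in KO_IR and an interaction of -1.41 ± 0.20 (adjusted p = 0.00677). Cspg4, the NG2 proteoglycan gene of pericytes, had a KO change smaller than its SE (adjusted p = 0.994) and an interaction of -1.16 ± 0.16 (adjusted p = 0.00659). The summed level of the 7 markers was 24.0 and 30.3 FPKM in WT, 77.9 and 78.5 in WT_IR, 32.1 and 37.2 in KO, and 46.8 and 53.9 in KO_IR. Their part in the matrix response was not tested.

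Of 11 endothelial markers, 6 rose and 1 fell in WT, 0 were called in KO by limma or voom (3 at an unadjusted p under 0.05), and 1 had an interaction below 0, Cdh5 at -0.68 ± 0.16 (adjusted p = 0.0333). Only without KO replicate 1 or WT_IR replicate 2 was that call kept. On a TPM scale 6 markers had an interaction below 0 and 6 on recovered totals, beside 3783 and 2357 of all 15607 genes. In either direction voom called 6, beside 3722 of all genes.

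Mitosis genes rose in WT, some rose in KO, and all were lower in KO_IR than in WT_IR. All 22 tested rose in WT, 8 rose in KO, and 1, the mitotic kinase gene Aurkb, had an interaction below 0, at -0.88 ± 0.21 (adjusted p = 0.0300). That call was kept only without WT replicate 2 or KO_IR replicate 1, and voom called 0 on this list. Without IR the KO mean lay below the WT mean for all 22, 3 of them called, with a median difference of -0.66, and after IR all 22 were called lower, with a median of -1.18. The KO_IR libraries thus stood near the WT level, at a mean deviation from WT of 0.17 and -0.065, against 1.11 and 1.18 in WT_IR and -0.76 and -0.68 in KO. Many of these levels are under 1 FPKM in KO, where the pseudocount compresses log2 changes. On TPM and recovered-total scales 6 and 9 of the 22 interactions were below 0, beside 3783 and 2357 of all 15607 genes.

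Ccnb2, the gene of cyclin B2, had 4.23 and 4.61 FPKM in WT, 13.7 and 14.4 in WT_IR, 0.851 and 1.14 in KO, and 6.32 and 4.31 in KO_IR. Its change was 1.47 ± 0.16 (adjusted p = 0.000444) in WT and 1.65 ± 0.16 (adjusted p = 0.0143) in KO, and the interaction of 0.17 ± 0.23 (adjusted p = 0.652) had an interval of -0.36 to 0.71. Ube2c, a ubiquitin-conjugating enzyme of the anaphase-promoting complex, had 1.99 and 2.54 FPKM in WT, 7.28 and 8.04 in WT_IR, 0.501 and 0.600 in KO, and 2.86 and 2.42 in KO_IR, with an interaction of -0.18 ± 0.18 (adjusted p = 0.538) and an interval of -0.60 to 0.24. For Mki67, the gene of the proliferation antigen Ki-67, the interaction was -0.30 ± 0.16 (adjusted p = 0.269). Both Ccnb2 and Ube2c were called lower in KO without IR, by -1.44 ± 0.16 (adjusted p = 0.0444) and -1.07 ± 0.13 (adjusted p = 0.0478).

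S phase genes changed by less. Of 21 tested, 16 rose in WT, 1 rose in KO, and the interaction was called above 0 for 1 and below 0 for 1. The helicase gene Mcm4 had 2.32 and 2.36 FPKM in WT, 5.58 and 5.62 in WT_IR, 2.43 and 2.69 in KO, and 3.06 and 2.86 in KO_IR and an interaction of -0.83 ± 0.13 (adjusted p = 0.00860), with the KO libraries slightly above WT. The one above 0 was Rrm2. Of 15 p53 targets 7 rose and 2 fell in WT, and limma called 0 in KO (2 at an unadjusted p under 0.05, 0 by voom) and 0 for the interaction (3 at an unadjusted p under 0.05, 3 by voom). The apoptosis gene Bbc3, which encodes PUMA, had the smallest p on that list, with an interaction of -1.14 ± 0.32 (adjusted p = 0.0543).

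**Figure D4:**
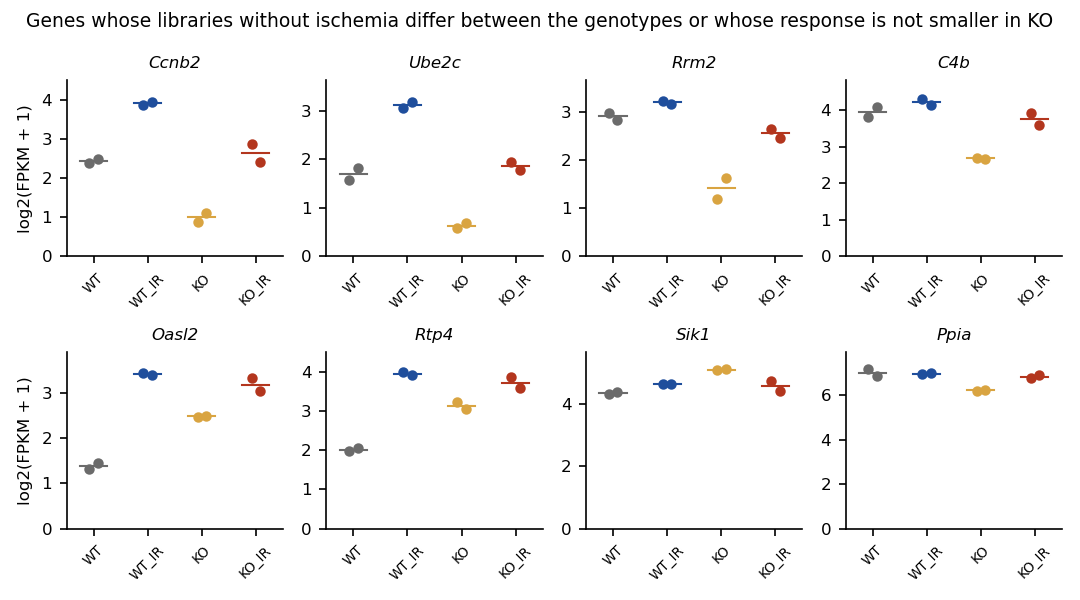
Level of 8 genes in each library, as log2(FPKM + 1); each point is a library and the horizontal lines are group means of 2 libraries. Ccnb2, Ube2c, Rrm2, C4b and Ppia are lower in KO than in WT and higher in KO_IR than in KO, Oasl2 and Rtp4 are higher in KO than in WT, and Sik1 is highest in KO.

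Immediate early genes differed most between the KO_IR libraries. Of 19 tested, 10 rose in WT, 0 were called in KO by limma (10 at an unadjusted p under 0.05, 2 by voom), and the interaction was called for 2, Fosl1 and Klf4, of which only Fosl1 kept its call with every library left out. KO_IR replicate 1 held a mean deviation from WT of 1.88 over the list, above the WT_IR libraries at 1.46 and 1.62, while KO_IR replicate 2 lay at 0.26. Without KO_IR replicate 1 the interaction was called for 12 of the 19. Atf3, a stress-induced transcription factor, had 0.716 and 0.751 FPKM in WT, 13.8 and 19.0 in WT_IR, 0.668 and 1.36 in KO, and 60.2 and 3.72 in KO_IR, and Egr1, a growth factor-induced one, had 1.36 and 1.12 FPKM in WT, 11.5 and 12.1 in WT_IR, 1.13 and 1.88 in KO, and 30.9 and 3.60 in KO_IR. In both the KO_IR libraries lay on either side of WT_IR. Fosl1, the gene of the AP-1 subunit FRA1, did not follow this split, with 0.759 and 0.190 FPKM in WT, 4.04 and 6.75 in WT_IR, 1.08 and 1.02 in KO, and 1.14 and 0.826 in KO_IR and an interaction of -2.17 ± 0.36 (adjusted p = 0.0101). WT replicate 2 of Fosl1 was under the floor, so the size of this interaction depends on the pseudocount. Myc had 2.52 and 3.71 FPKM in WT, 21.8 and 24.4 in WT_IR, 2.80 and 3.01 in KO, and 10.8 and 4.43 in KO_IR, and its interaction of -1.52 ± 0.47 (adjusted p = 0.0710) did not pass.

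Amino acid and ER stress genes split by direction. Of 15 tested, 8 rose and 4 fell in WT, 0 were called in KO by limma or voom (5 at an unadjusted p under 0.05), and the interaction was below 0 for 4 and above 0 for 3. Trib3, a pseudokinase induced by ATF4, had 0.203 and 0.304 FPKM in WT, 4.74 and 5.51 in WT_IR, 0.516 and 0.469 in KO, and 0.916 and 0.754 in KO_IR and an interaction of -1.99 ± 0.18 (adjusted p = 0.00341). Asns, asparagine synthetase, had an interaction of -1.08 ± 0.19 (adjusted p = 0.0116), while Cth, an enzyme of cysteine synthesis, fell in WT and had an interaction of 1.41 ± 0.16 (adjusted p = 0.00430).

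Distal nephron genes that fell in WT_IR were among those with large interactions above 0. Egf (ENSMUSG00000028017, GRCm38 chromosome 3, 129677565 to 129755316), a growth factor precursor made in the thick ascending limb and distal convoluted tubule, had 172 and 173 FPKM in WT, 8.72 and 5.61 in WT_IR, 228 and 262 in KO, and 169.6 and 188 in KO_IR. The KO_IR libraries lay level with WT and far above both WT_IR libraries. Its WT change was -4.44 ± 0.18 (adjusted p = 4.59e-05), its KO change -0.45 ± 0.18 (adjusted p = 0.349), and its interaction 3.98 ± 0.25 (adjusted p = 0.00234).

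Calcium handling genes of the distal convoluted tubule behaved alike. S100g, which encodes calbindin-D9k, had 1612 and 1483 FPKM in WT, 119 and 79.4 in WT_IR, 1279 and 1316 in KO, and 1091 and 1080 in KO_IR, with an interaction of 3.72 ± 0.26 (adjusted p = 0.00276). Calb1, the gene of calbindin-D28k, had 122 and 128 FPKM in WT, 6.40 and 5.95 in WT_IR, 77.6 and 99.2 in KO, and 45.1 and 70.4 in KO_IR, and its KO_IR libraries lay below KO. Its interaction was 3.51 ± 0.29 (adjusted p = 0.00325). Pvalb, the gene of parvalbumin, was at 0 in WT_IR replicate 1 and 0.0946 FPKM in replicate 2, under the floor, against 20.0 and 18.5 in WT, so the size of its WT change depends on the pseudocount. It had 13.0 and 14.9 FPKM in KO and 6.35 and 8.43 in KO_IR and fell in KO too, by -0.84 ± 0.14 (adjusted p = 0.0489), with an interaction of 3.43 ± 0.20 (adjusted p = 0.00183). The Klk1 interaction was 3.56 ± 0.17 (adjusted p = 0.00101). Over the 8 markers of this segment, 7 fell and 1 rose in WT, 1, Pvalb, fell in KO, and 5 had an interaction above 0, a count that stayed at 5 or 6 with any library left out.

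Neighbouring segments showed the same direction at smaller size. Of 7 thick ascending limb markers 5 fell in WT, 0 were called in KO by limma or voom (2 at an unadjusted p under 0.05), and 4 had an interaction above 0. Kcnj1, a potassium channel gene, had 98.7 and 86.8 FPKM in WT, 27.3 and 30.5 in WT_IR, 104 and 112 in KO, and 64.5 and 81.8 in KO_IR and an interaction of 1.09 ± 0.19 (adjusted p = 0.0117). Of 7 intercalated cell markers 6 fell in WT and 5 had an interaction above 0. Slc26a4, the gene of the anion exchanger pendrin, had an interaction of 2.02 ± 0.16 (adjusted p = 0.00325), and Slc4a1, an anion exchanger of acid-secreting cells, had 20.2 and 14.0 FPKM in WT, 1.28 and 1.16 in WT_IR, 15.6 and 21.2 in KO, and 10.4 and 16.7 in KO_IR. Principal cells showed 2 of 7 markers lower in WT and 1 interaction above 0, Aqp3 at 1.22 ± 0.26 (adjusted p = 0.0240). The median interaction of that list turns below 0 on a TPM scale, and relative to the TPM median of all genes, -0.39, it was 0.358. The Aqp3 call was lost without WT replicate 1, KO replicate 1, WT_IR replicate 1 or either KO_IR library.

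Protective factors followed the tubule. Of 9 tested, 7 fell in WT, 0 were called in KO by limma or voom (2 at an unadjusted p under 0.05), and 5 had an interaction above 0. Kl (ENSMUSG00000058488, GRCm38 chromosome 5, 150952607 to 150993817) encodes klotho, a co-receptor for FGF23. It had 79.4 and 75.3 FPKM in WT, 26.2 and 16.4 in WT_IR, 85.2 and 87.7 in KO, and 69.6 and 74.8 in KO_IR, and its interaction was 1.59 ± 0.27 (adjusted p = 0.0105). Sirt3, a mitochondrial deacetylase gene, had an interaction of 1.00 ± 0.12 (adjusted p = 0.00475).

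Proximal tubule transporters and enzymes fell in WT_IR and were close to their KO level in KO_IR. Of 21 tested, 20 fell and 1 rose in WT (beside 23.2% falling over all genes), 0 were called in KO by limma or voom (1 at an unadjusted p under 0.05), and 16 had an interaction above 0 (9.62%). That number was 12 to 17 with a library left out, and 5 without both KO replicate 2 and KO_IR replicate 1. The median change was -1.93 in WT and -0.17 in KO. Slc22a8 (ENSMUSG00000063796, GRCm38 chromosome 19, 8591254 to 8611834), which takes up organic anions from blood, had 135 and 111 FPKM in WT, 7.57 and 4.98 in WT_IR, 160.5 and 163 in KO, and 134 and 113 in KO_IR, with an interaction of 3.71 ± 0.26 (adjusted p = 0.00276). Miox, an inositol oxygenase gene, had 1112 and 1091 FPKM in WT, 203 and 154 in WT_IR, 943 and 1103 in KO, and 936 and 1080 in KO_IR. The KO_IR libraries overlapped KO, and the interaction was 2.62 ± 0.24 (adjusted p = 0.00346). Slc5a2, the glucose transporter SGLT2, had 207 and 188 FPKM in WT, 55.2 and 47.5 in WT_IR, 201 and 180.4 in KO, and 189.7 and 165 in KO_IR and an interaction of 1.82 ± 0.17 (adjusted p = 0.00367).

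Transcription regulators of the proximal tubule followed at smaller size. Of 13 tested, 8 fell in WT and 4 had an interaction above 0, led by Hnf4a, the nuclear receptor that keeps proximal identity, with 229 and 224 FPKM in WT, 99.2 and 86.9 in WT_IR, 226 and 205 in KO, and 183 and 178 in KO_IR and an interaction of 1.02 ± 0.14 (adjusted p = 0.00661). Of 12 male-biased kidney genes 11 fell in WT, 2 fell in KO, and 8 had an interaction above 0. Slc22a30, an organic anion transporter gene, had an interaction of 2.02 ± 0.19 (adjusted p = 0.00367). Akr1c14, an aldo-keto reductase gene, fell in both genotypes, with 39.3 and 42.3 FPKM in WT, 10.8 and 11.1 in WT_IR, 56.5 and 61.3 in KO, and 30.2 and 29.5 in KO_IR and an interaction of 0.85 ± 0.11 (adjusted p = 0.00599).

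Other genes with large interactions above 0 were enzymes and carriers. Inmt, an N-methyltransferase gene, had 251 and 178 FPKM in WT, 19.4 and 11.2 in WT_IR, 401 and 386 in KO, and 348 and 255 in KO_IR and an interaction of 3.35 ± 0.39 (adjusted p = 0.00448). Ces1d, a carboxylesterase gene whose reads can be shared with close paralogs, had an interaction of 3.35 ± 0.36 (adjusted p = 0.00413), and Ttr, which carries thyroid hormone, one of 3.36 ± 0.27 (adjusted p = 0.00325). Nccrp1 had 87.7 and 28.2 FPKM in WT, 2.81 and 1.57 in WT_IR, 47.1 and 60.2 in KO, and 32.4 and 35.8 in KO_IR, and its interaction of 3.39 ± 0.66 (adjusted p = 0.0169) was lost without KO replicate 1 or WT_IR replicate 2.

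Mitochondrial genes on the mitochondrial chromosome varied between replicates. mt-Atp8, a subunit of ATP synthase, had 72.9 and 43.1 FPKM in WT, 8.04 and 3.14 in WT_IR, 19.2 and 29.9 in KO, and 42.8 and 19.8 in KO_IR, and mt-Co3, a subunit of cytochrome oxidase, had 574 and 413 FPKM in WT, 58.3 and 42.1 in WT_IR, 204 and 373 in KO, and 399.9 and 171 in KO_IR. The KO values lay below WT, and the KO_IR libraries differed by more than 2-fold from each other. The interactions of 3.50 ± 0.70 (adjusted p = 0.0182) and 3.19 ± 0.63 (adjusted p = 0.0172) were lost without WT replicate 1 or WT_IR replicate 2, and that of mt-Atp8 also without KO replicate 1. Reads of both can be shared with nuclear copies.

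Nuclear genes of mitochondrial energy metabolism were steadier. Of 24 oxidative phosphorylation genes 24 fell in WT, 0 were called in KO by limma or voom (4 at an unadjusted p under 0.05), and 23 had an interaction above 0, 21 to 24 with a library left out. Their median change was -1.37 in WT and -0.18 in KO. Ndufv2, a subunit of complex I, had 112 and 104 FPKM in WT, 43.1 and 44.2 in WT_IR, 81.5 and 90.4 in KO, and 84.5 and 82.6 in KO_IR. KO and KO_IR overlapped, and the interaction was 1.25 ± 0.12 (adjusted p = 0.00367). Of 16 citric acid cycle genes all 16 fell in WT and all 16 had an interaction above 0, 15 or 16 with a library left out. Suclg2, a subunit of succinyl-CoA ligase, had 95.4 and 98.0 FPKM in WT, 36.4 and 35.2 in WT_IR, 94.4 and 88.2 in KO, and 93.0 and 80.7 in KO_IR, with an interaction of 1.33 ± 0.13 (adjusted p = 0.00368).

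Fatty acid oxidation genes had a median difference of -0.34 between KO and WT without IR, with 0 called by limma or voom (9 at an unadjusted p under 0.05). Of 24 tested, 23 fell in WT, 0 were called in KO by limma or voom (3 at an unadjusted p under 0.05), and 14 had an interaction above 0, 11 to 19 with a library left out. Acaa2, the mitochondrial thiolase gene, had 282 and 262 FPKM in WT, 72.3 and 66.3 in WT_IR, 206 and 180.0 in KO, and 199 and 156 in KO_IR. The KO libraries lay below WT, KO_IR replicate 1 lay within KO and replicate 2 below it, and the interaction was 1.84 ± 0.19 (adjusted p = 0.00402).

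**Figure D5:**
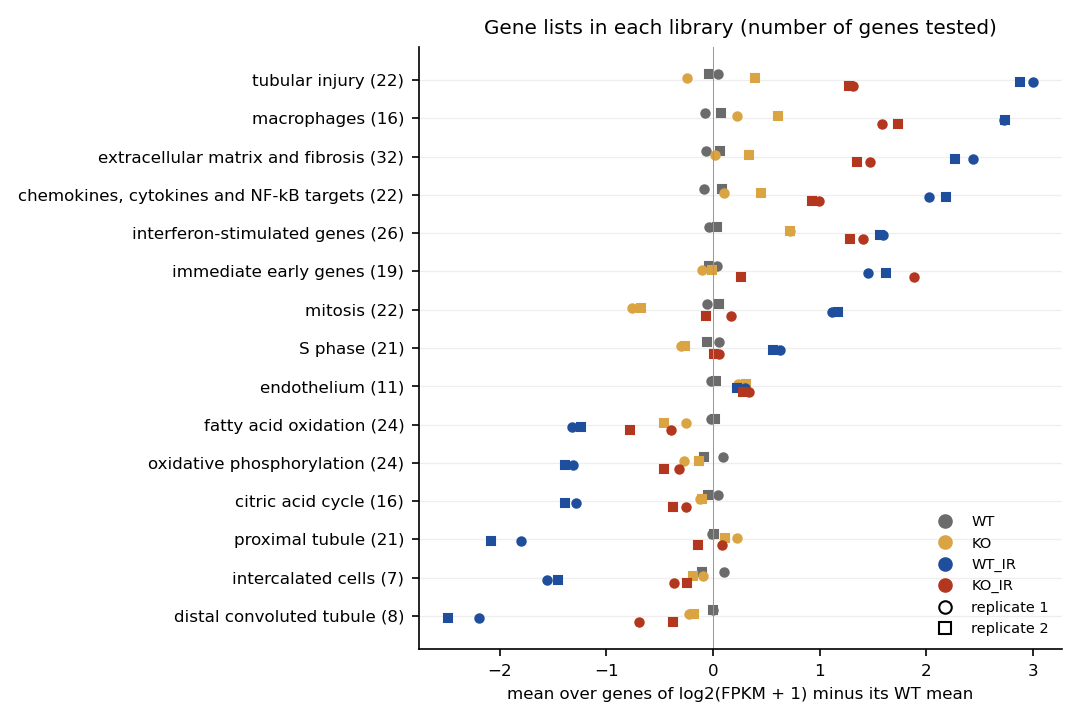
Mean over the genes of a list of log2(FPKM + 1) minus the WT mean, in each of the 8 libraries, for 15 lists; the number of genes tested is in brackets and 0 is the WT level. KO_IR lies between KO and WT_IR for most lists, close to WT_IR for interferon-stimulated genes (1.29 and 1.40 against 1.57 and 1.59), near WT for mitosis, and at 0.26 and 1.88 for immediate early genes.

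Lists of other metabolism changed by less. In the glutathione, iron and NRF2 list 13 of 20 fell and 1 rose in WT, 0 were called in KO by limma or voom (4 at an unadjusted p under 0.05), and 3 had an interaction above 0, among them Ggt1, which breaks down extracellular glutathione, at 1.45 ± 0.17 (adjusted p = 0.00430). Of 20 hypoxia and glycolysis genes 12 fell and 1 rose in WT, and the interaction was above 0 for 8 and below 0 for 1. Pgk1, a glycolytic kinase gene, had an interaction of 0.93 ± 0.13 (adjusted p = 0.00662), and Hk2, the hexokinase that injured tissue switches on, rose in WT and had one of -1.21 ± 0.20 (adjusted p = 0.0101). The medians of both lists turn just below 0 on a TPM scale, where the median of all genes is -0.39. Relative to that median they were 0.391 and 0.393.

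Cholesterol synthesis genes fell in WT at 8 of 17 and rose at 1, and 5 had an interaction above 0. Cyp51, a demethylase of the pathway, had 55.4 and 53.1 FPKM in WT, 15.4 and 11.7 in WT_IR, 81.5 and 103 in KO, and 58.0 and 59.3 in KO_IR, with KO above WT and an interaction of 1.30 ± 0.21 (adjusted p = 0.00988). Of 17 circadian clock genes 3 fell in WT, beside 23.2% of all genes. In KO 0 were called by limma or voom (also 0 at an unadjusted p under 0.05). Beside 9.62% of all genes, 1 had an interaction above 0, Hlf at 1.66 ± 0.28 (adjusted p = 0.0103). The clock output gene Dbp had 20.5 and 6.29 FPKM in WT, 8.23 and 2.94 in WT_IR, 50.6 and 51.0 in KO, and 43.2 and 38.5 in KO_IR, so that the KO and KO_IR libraries lay above every WT and WT_IR library. The median difference of the clock list between the genotypes was 0.56 without IR and 0.86 after IR, and the time of day of tissue collection is not given in the sources used here. Its median interaction turns below 0 on a TPM scale, and relative to the TPM median of all genes, -0.39, it was 0.336.

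The H3K9 and DNA methylation machinery, the partners and counterparts of G9a, showed 4 of 19 genes higher and 1 lower in WT. Over all genes 19.1% were higher and 23.2% lower. In KO 0 were called by limma or voom (1 at an unadjusted p under 0.05). Beside 6.68% of all genes, the interaction was called below 0 for 1. That was Kdm4a, an H3K9 demethylase gene, with 13.0 and 14.2 FPKM in WT, 22.7 and 28.1 in WT_IR, 13.5 and 15.6 in KO, and 13.7 and 13.4 in KO_IR and an interaction of -0.94 ± 0.17 (adjusted p = 0.0130). The count below 0 was 9 on a TPM scale and 7 on recovered totals, beside 3783 and 2357 of all 15607 genes. In either direction voom called 8, beside 3722 of all genes. Of 5 red blood cell transcripts 4 fell in WT, 0 were called in KO by limma or voom (3 at an unadjusted p under 0.05) and 0 for the interaction (0 by either measure). The globin gene Hbb-bs had 116 and 157 FPKM in WT, 66.8 and 93.6 in WT_IR, 122 and 176 in KO, and 86.5 and 99.1 in KO_IR, and the IR libraries lay below the others in both genotypes, with an interaction of 0.11 ± 0.34 (adjusted p = 0.868) that turns below 0 on TPM and recovered-total scales. Markers of adrenal gland and adipose tissue were low, with 1 of 6 and 0 of 6 passing the filter.

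A response of at least 2-fold in both genotypes, called in both, was found in 85 genes (0.545%), 81 rising and 4 falling. For 67 of these the interaction was called, so the response was present in KO but smaller. For 18 it was not called, and 11 protein-coding ones of these are named here by a rule chosen after their values were seen. A missed call does not show that responses were equal, and the interval of the interaction is given for each.

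Cpe, the gene of carboxypeptidase E, which trims peptide hormones, had 13.0 and 20.5 FPKM in WT, 117 and 140.3 in WT_IR, 14.8 and 17.0 in KO, and 67.4 and 64.1 in KO_IR. KO_IR stood well above KO and below WT_IR, with an interaction of -0.91 ± 0.28 (adjusted p = 0.0737) and an interval of -1.58 to -0.24. Of the same kind were Col6a1 and Col6a2, chains of collagen VI, with interactions of -1.05 ± 0.32 (adjusted p = 0.0663) and -1.01 ± 0.28 (adjusted p = 0.0511) and intervals of -1.80 to -0.30 and -1.67 to -0.35. Cnn2, a calponin gene, had an interaction of -0.87 ± 0.32 (adjusted p = 0.114) with an interval of -1.63 to -0.12. These 4 intervals lie below 0 although the adjusted p missed the threshold, and all 4 interactions were called on TPM and recovered-total scales and with voom.

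In a pair of myeloid genes the IR libraries of the genotypes overlapped. Siglec1, a sialic acid receptor of macrophages, had 0.130 and 0.317 FPKM in WT, 3.77 and 2.92 in WT_IR, 0.749 and 0.515 in KO, and 3.21 and 2.71 in KO_IR. The KO libraries were above WT, and the interaction was -0.55 ± 0.22 (adjusted p = 0.147) with an interval of -1.07 to -0.02. WT replicate 1 of Siglec1 was under the floor, so the size of this interaction depends on the pseudocount. Mnda, an interferon-inducible nuclear antigen of myeloid cells, had 0.449 and 0.652 FPKM in WT, 4.46 and 3.78 in WT_IR, 1.27 and 1.01 in KO, and 4.0 and 4.09 in KO_IR, with an interaction of -0.48 ± 0.18 (adjusted p = 0.117) and an interval of -0.90 to -0.06. Siglec1 was called on a TPM scale (adjusted p = 0.0309) and with voom (adjusted p = 0.0186), and Mnda on a TPM scale (adjusted p = 0.0234) and on recovered totals (adjusted p = 0.0396).

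Among genes that fell in both, Cyp7b1, an oxysterol hydroxylase gene, had 70.3 and 96.5 FPKM in WT, 14.4 and 22.7 in WT_IR, 81.5 and 65.1 in KO, and 25.7 and 18.3 in KO_IR. The IR libraries overlapped between the genotypes, with a KO change of -1.70 ± 0.26 (adjusted p = 0.0422) and an interaction of 0.43 ± 0.37 (adjusted p = 0.492), an interval of -0.45 to 1.31 and a sign that turns on a TPM scale. Sec14l3, a lipid-binding protein gene, had 4.65 and 5.93 FPKM in WT, 1.14 and 1.24 in WT_IR, 5.27 and 7.23 in KO, and 2.25 and 2.51 in KO_IR and an interaction of 0.43 ± 0.22 (adjusted p = 0.253) with an interval of -0.10 to 0.96. For Serpina1d the interaction was 0.86 ± 0.34 (adjusted p = 0.135) with an interval of 0.07 to 1.66. Ccnb2 and Ube2c, given with the mitosis genes, rose at least 2-fold in both genotypes, and their interactions were not called either.

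Responses with a larger estimate in KO than in WT were rare, and the sizes were not tested against each other. In 23 genes (0.147%) the interaction was called and the KO change was larger than the WT change, in the same or the opposite direction, of which 12 are protein-coding and 5 had a called KO change. In 13 of the 23 the genotypes differed more without IR than after it. The count was 6 without WT replicate 1, 12 without WT_IR replicate 1, 11 without WT_IR replicate 2 and 71 without KO_IR replicate 2.

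Rrm2, the small subunit of ribonucleotide reductase that supplies DNA synthesis, had 6.97 and 6.19 FPKM in WT, 8.43 and 8.03 in WT_IR, 1.29 and 2.12 in KO, and 5.32 and 4.51 in KO_IR. KO lay far below WT, by -1.50 ± 0.16 (adjusted p = 0.0444), and KO_IR came back towards it, with an interaction of 0.86 ± 0.22 (adjusted p = 0.0420). C4b, a complement gene with a close paralog, had 13.0 and 15.9 FPKM in WT, 18.8 and 16.8 in WT_IR, 5.47 and 5.34 in KO, and 14.3 and 11.03 in KO_IR, a difference without IR of -1.26 ± 0.14 (adjusted p = 0.0445) and an interaction of 0.79 ± 0.20 (adjusted p = 0.0380). Ppia, the gene of cyclophilin A, which has many processed copies, had 143 and 116 FPKM in WT, 122 and 127 in WT_IR, 73.2 and 74.3 in KO, and 108 and 119 in KO_IR and an interaction of 0.66 ± 0.17 (adjusted p = 0.0379). In each of these the KO libraries stood lowest, and KO_IR lay between KO and the highest WT library. The Ppia interaction fell short of the threshold on a TPM scale, at 0.22 (adjusted p = 0.356), on recovered totals, at 0.37 (adjusted p = 0.150), and with voom, at 0.38 (adjusted p = 0.125). On TPM and recovered totals Rrm2 had 0.63 (adjusted p = 0.102) and 0.59 (adjusted p = 0.0917), and C4b had 0.42 (adjusted p = 0.128) and 0.52 (adjusted p = 0.0845). Voom called both.

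Sik1, a salt-inducible kinase gene, had 19.0 and 19.5 FPKM in WT, 23.6 and 23.5 in WT_IR, 32.8 and 33.2 in KO, and 25.4 and 20.3 in KO_IR. It was highest in KO, and the interaction was -0.80 ± 0.15 (adjusted p = 0.0160). Slc6a9, a glycine transporter gene, had 4.41 and 4.39 FPKM in WT, 5.17 and 5.33 in WT_IR, 4.54 and 4.06 in KO, and 2.90 and 2.94 in KO_IR. KO_IR lay below all other libraries, with an interaction of -0.64 ± 0.12 (adjusted p = 0.0162). S100a8, a neutrophil gene, had 1.87 and 1.68 FPKM in WT, 4.15 and 2.69 in WT_IR, 1.28 and 2.88 in KO, and 0.595 and 0.831 in KO_IR, with KO_IR again lowest and an interaction of -1.46 ± 0.37 (adjusted p = 0.0410).

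Of the 9 named genes of this kind, only Rrm2 (adjusted p = 0.031) and C4b (adjusted p = 0.029) had a called KO change. Only Tmem254c kept its interaction call with every library left out. It had 1.91 and 2.17 FPKM in WT, 0.965 and 0.964 in WT_IR, 1.60 and 2.60 in KO, and 3.95 and 3.60 in KO_IR. It fell in WT_IR and was highest in KO_IR, with an interaction of 1.27 ± 0.23 (adjusted p = 0.0127). Its changes, -0.63 ± 0.16 in WT (adjusted p = 0.0179) and 0.64 ± 0.16 in KO (adjusted p = 0.146), were about equal in size and opposite in sign. Its reads can be shared with near-identical neighbouring copies. Rpl7a, a ribosomal protein gene, and its processed copy Rpl7a-ps5 had interactions of opposite sign, -0.71 ± 0.18 (adjusted p = 0.0392) and 1.00 ± 0.23 (adjusted p = 0.0289), and reads of the pair can be divided between them in either way. On a TPM scale the interaction of Rpl7a-ps5 was 0.59 (adjusted p = 0.0572). The calls of Rrm2, C4b, Ppia, Sik1, Slc6a9, S100a8, Rpl7a and Rpl7a-ps5 each ended without WT replicate 1 and WT_IR replicate 1, and for most also without other libraries.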

How the data were processed

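Kidney RNA was sequenced in 8 libraries, 2 for each of 4 groups. The authors deposited 1 table of FPKM values per gene (fragments per kilobase of transcript, scaled to depth), which is the unit used here; reads were aligned with HISAT2 2.0.5 to mm10 (GRCm38.p6), per the submitters' processing notes. Fragments recovered from the steps of the deposited FPKM values came out whole for 100% of values (tolerance 1e-06) and gave the depths. Genes whose mean reached 0.5 FPKM were fitted as log2(FPKM + 1), which understates changes of low genes, with limma 3.58.1 in R 4.3.3 (1 mean per group, variance trend, 4 residual and 3.04 prior degrees of freedom), and p-values were adjusted by Benjamini-Hochberg over all 15607 genes. A value after ± is a standard error, and intervals are 95%. The model was checked on simulated data.

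Responders were genes called in WT with at least a 2-fold change. Genes named were the 12 protein-coding ones with the largest called interaction in each direction and at least 2 FPKM in the highest group, the largest responses enlarged or 2-fold in both genotypes, and up to 4 members of each of 36 lists by interaction p. Alb, Atf3, C1qb, C8a, Col3a1, Dbp, Egr1, Irf7, Itih2, Mki67 and Zbp1 are also described, chosen after their values were seen, as were the ratio classes. Members and lists were chosen with earlier results of these data known. Alternatives were other pseudocounts, filters, scales, voom, a replicate block and libraries left out. Promoters are from RefSeq (GRCm38.p6). Results for podocyte markers are not reported here.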

Additional observations from a re-analysis of the deposited data

Results flagged for a closer look

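All results here are differences between the genotypes in the change with ischemia-reperfusion, each tested as an interaction by limma with adjustment over all genes. The interaction was called above 0 for 1502 genes and below 0 for 1042.

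Among genes with large interactions below 0, the values were -3.96 for Havcr1, -3.49 for Lcn2, -3.46 for Aoc1, -3.25 for Vcam1, -3.16 for C3 and -3.13 for Sox9. Smaller ones were -3.11 for Ccl2, -3.02 for Cxcl10, -2.89 for Prrg4, -2.85 for Hspb1, -2.82 for Krt20 and -2.75 for Cp. The injury gene Havcr1 was the only one of these 12 whose call was lost with a single library left out.

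Among genes with large interactions above 0, the values were 3.98 for Egf, 3.72 for S100g, 3.71 for Slc22a8, 3.56 for Klk1, 3.51 for Calb1 and 3.50 for mt-Atp8. Smaller ones were 3.43 for Pvalb, 3.39 for Nccrp1, 3.36 for Ttr, 3.35 for Inmt, 3.35 for Ces1d and 3.19 for mt-Co3. The calls of mt-Atp8, Nccrp1 and mt-Co3 were lost with some libraries left out.

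In some genes the estimated change was larger in size in KO, which was not itself tested. For these the interaction was -1.46 for S100a8, 1.27 for Tmem254c, 1.00 for Rpl7a-ps5, 0.86 for Rrm2 and -0.80 for Sik1. It was 0.79 for C4b, -0.71 for Rpl7a, 0.66 for Ppia and -0.64 for Slc6a9. Of these 9, Tmem254c kept its call with every library left out.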

How the results depend on the processing

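The interaction was called for 2544 genes, and for 1670 with no filter on low values, 4528 on a TPM scale and 1289 to 2315 with 1 library left out. Above 0 there were 1502, and 968 with no filter, 745 on TPM, 950 on recovered totals and 809 to 1463 with a library left out. Below 0 there were 1042, and 576 at a minimum mean of 5 FPKM, 3783 on TPM, 2357 on recovered totals, 2657 with voom and 451 to 852 with a library left out. Without both KO replicate 2 and KO_IR replicate 1 the counts were 497 in all, 320 above and 177 below 0, from fewer samples. Below 0.5 times the WT response the count of 2 became 1 at a pseudocount of 5, 1 with no filter, 6 at a minimum mean of 5 FPKM, 19 with voom, 0 with both libraries left out and 0 to 0 with any single one left out. Responses with a larger estimate in KO numbered 55 with no filter, 14 at a minimum mean of 5 FPKM and 6 to 71 with a library left out. The slope of 0.303 was 0.277 to 0.355 with a library left out and 0.401 without both. The median ratio of responses among genes that rose, 0.359, was 0.257 for FPKM differences and 0.272 from KO replicate 2 to KO_IR replicate 1 alone. Among genes that fell it was 0.152. In genes called and changed at least 2-fold in KO it was 0.502 for 85 rises and 0.661 for 7 falls. For 2 of these 7 the WT change had the opposite sign. Genes called in KO were chosen by the KO change, which is part of the ratio. These settings for the ratio were chosen after seeing the data. voom called 349 genes higher in KO_IR than in KO, beside 148. Apart from the stated construction of a setting, the cause was not tested.

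Same-numbered libraries deviated together with correlations of only -0.122 to 0.164, so the numbers were not treated as pairs. With the number as a replicate block the interaction was called for 1472 genes above and 1001 below 0, and 0 lay below 0.5 times the WT response. Of 166 single-gene interactions, none turned sign while called; 51 lost and 1 gained a call without both doubted libraries, and 15 lost and 29 gained one on TPM, 7 and 28 on recovered totals, 6 and 20 with voom, and 7 and 9 under the block. Under the block Rrm2, C4b, Ppia, Rpl7a and S100a8 lost theirs (adjusted p = 0.0621, 0.0521, 0.0546, 0.0544 and 0.0573), and Cpe, Col6a1, Col6a2 and Serpina1d gained one (adjusted p = 0.0441, 0.0297, 0.0376 and 0.0310). With 2 pools per group, a gene of low FPKM has limited precision from depth, and calls of KO responses depend most on which library is kept.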
